A study of Arabidopsis thaliana with 39 samples.

Results

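The 10 genes described here are ethylene response factors (ERFs) of Arabidopsis thaliana, chosen by gene identifier out of 32678 genes in the deposited tables. ERF1A (AT4G17500) and ERF2 (AT5G47220) belong to group IXa. ERF5 (AT5G47230), ERF6 (AT4G17490), ERF104 (AT5G61600) and ERF105 (AT5G51190) belong to group IXb, and ERF1 (AT3G23240) and ORA59 (AT1G06160) to group IXc. ERF4 (AT3G15210) and ERF11 (AT1G28370) are repressors of group VIIIa. All 10 passed the expression filter and were tested.

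ERFs are transcription factors with a single AP2/ERF DNA-binding domain, and many of them bind the GCC box, an element in the promoters of defence genes. When ethylene is perceived, EIN3 and EIL1 accumulate and switch on genes such as ERF1, so that ERFs carry the signal on to its targets. Members of group IX mostly activate transcription, several of them are phosphorylated by stress-activated MAP kinases, and members of group VIIIa carry an EAR motif and repress.

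RNA was sequenced from seedlings, 5 days old, in 12 groups of 3 libraries. Wild type (WT) was set beside glyI2, a mutant of a glyoxalase I gene. The other two genotypes, OE1 and OE5, are lines #1 and #5 of plants labelled 35S::GLYI2 35S::GLYII4, where 35S is a constitutive viral promoter that drives both transgenes. Each genotype was left untreated (mock), or exposed for 12 h to NaCl at 100 mM or to methylglyoxal (MG) at 200 µM. MG is a reactive by-product of glycolysis that the glyoxalase enzymes remove. No label ties the libraries of a group to separate cultures, so the p-values rest on the spread among libraries, and that spread may be technical.

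Libraries held 21024878 to 22383131 counts. GLYI2 stood at 61.3 ± 8.23 CPM (counts scaled by library size and TMM factor, mean ± SD, n = 3) in the WT mock group. Its level in mock-treated glyI2 was 7.93 ± 2.25 CPM. In mock-treated OE1 and OE5 it was not higher than in WT, at 28.1 ± 6.98 and 51.3 ± 6.72 CPM. In OE1 it was called lower by edgeR (log2 fold change −1.13, adjusted p = 0.0358). That call was lost on the compared groups alone (0.162) or without any single WT mock library (0.0936 to 0.43). GLYII4 was at 31 ± 4.08 and 32.1 ± 5.99 CPM in OE1 and OE5 mock against 10.7 ± 1.53 in WT. After MG it was at 234, 285 and 381 CPM in OE1 and at 283, 167 and 346 CPM in OE5. The WT MG libraries held 12.1, 9.76 and 13.2 CPM. In 7 replicate 3 libraries the morning clock gene CCA1 was at −1.91 to 1.08 log2 CPM, against 4.24 to 6.31 in the other 29. LHY (1.49 to 3.07 against 6.1 to 7.27) and the light-harvesting gene LHCB2.2 (3.6 to 5.86 against 9.41 to 11.56) were likewise lower in them, and the evening gene TOC1 (5.86 to 6.16 against 4.09 to 4.91) was higher. The labels give no time of day of collection, and its part in the values below was not tested. These 7 are replicate 3 of WT NaCl and of the mock and NaCl groups of glyI2, OE1 and OE5. All 4 shoot markers and 4 of 6 root markers were detected in every library, and the seed and flower markers summed to at most 1.45 and 1.19 CPM.

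Per length, the repressor ERF4 had the highest level of the 10 genes in WT mock, at 47.9 ± 4.43 FPKM (n = 3). ERF1A followed at 19.3 ± 3.67 FPKM and ERF104 at 12.6 ± 2.89 FPKM. ERF2, ERF6, ERF5 and ORA59 lay between 6.7 and 5.49 FPKM, and neither ERF2 and ERF6 nor ERF5 and ORA59 were separated by their libraries. ERF105 was at 2.26 ± 0.655 FPKM, ERF11 at 1.15 ± 0.428 and ERF1 at 0.0647 ± 0.112 FPKM, with no read in 2 of 3 libraries. After MG the order in WT began with ERF6 (70.6 ± 5.33 FPKM), ERF4 (68.7 ± 22.6) and ERF1A (65.5 ± 15.6), whose libraries overlapped. In glyI2 after MG it began with ERF1A at 205 ± 14.3 FPKM, above every library of ERF6 (123 ± 13.6 FPKM) and ERF4 (112 ± 17.9 FPKM).

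**Figure D1:**
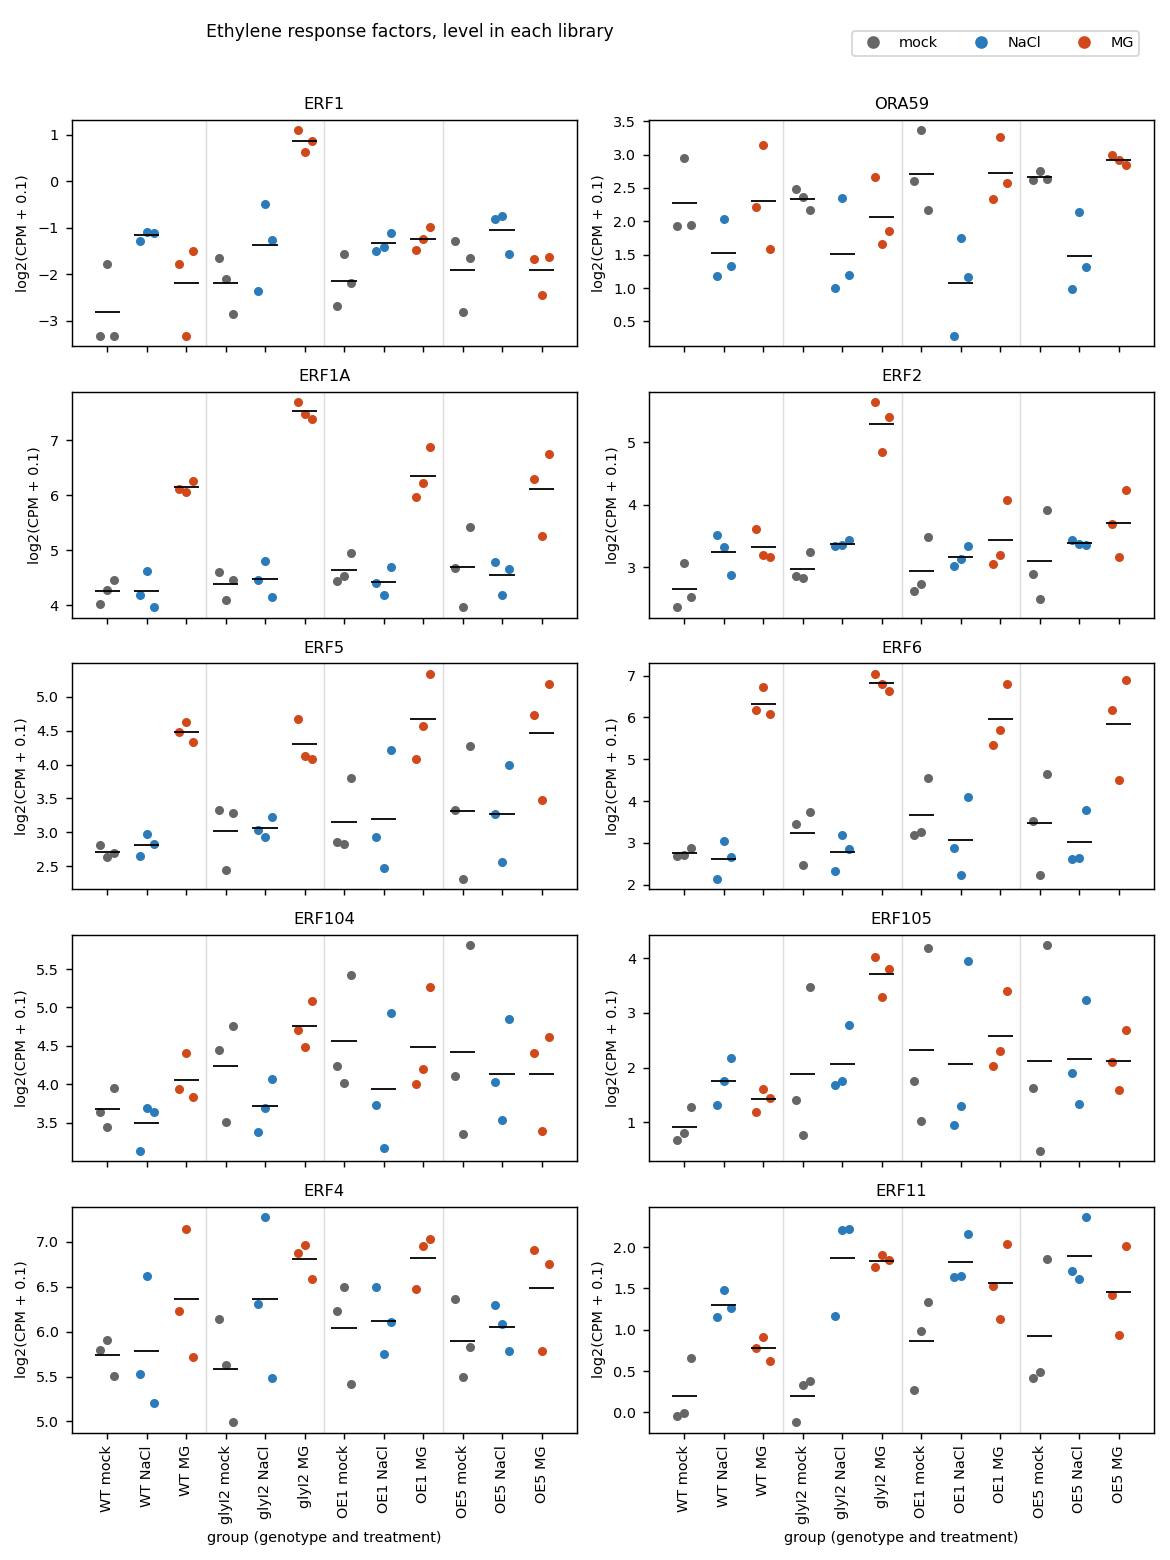
Level of the 10 ERF genes in each library as log2(CPM + 0.1), by genotype and treatment; points are libraries and bars the means of their 3 log2 values. ERF1A and ERF6 after MG stand above mock in WT, glyI2 and OE1, while in OE5 the groups overlap.

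MG raised ERF1A, ERF5 and ERF6 in WT, and none of the 10 genes fell. These 3 of 10 calls stand beside 6.42% of all genes tested that were called higher in that comparison (10.7% in either direction). The median log2 fold change of the 10 genes was 0.7, against 0 over all genes tested. In glyI2 MG raised 7 of the 10 (ERF1, ERF1A, ERF2, ERF5, ERF6, ERF4 and ERF11), where 14.4% of all genes were called higher and 29.2% in either direction. There the median was 1.54, against −0.09 over all genes. OE1 had the same 3 calls as WT (5.85% of all genes higher, 9.79% in either direction), and OE5 had 2, ERF1A and ERF6 (4.74% higher, 8.82% in either direction). ERF1A and ERF6 were thus called in all 4 genotypes, ERF5 in 3, and ERF1, ERF2, ERF4 and ERF11 in glyI2 alone, which is not a test of a difference between genotypes. Each genotype was set against its own mock libraries. The MG and mock libraries did not overlap for 4, 7, 4 and 1 of the 10 genes in WT, glyI2, OE1 and OE5. Over all genes tested this share was 26%, 42.9%, 24.2% and 20.8%, so a lack of overlap alone was common.

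ERF1A of group IXa, an activator that binds the GCC box, was at 16.2, 19.2 and 21.9 CPM in the 3 WT mock libraries and at 69.5, 66.7 and 76.6 CPM after MG. In glyI2 it went from 24.1, 17 and 21.8 CPM to 207, 178 and 168 CPM. Every MG library lay above every mock library in both genotypes, and the lowest glyI2 MG library lay above the highest WT MG library. The log2 fold change was 1.89 ± 0.32 in WT (± SE here and below, 3 libraries against 3; adjusted p = 7.84e-05) and 3.14 ± 0.34 in glyI2 (adjusted p = 2.29e-08). OE1 rose by 1.74 ± 0.32 (adjusted p = 0.000226), from 21.6, 23.1 and 31 CPM to 62.4, 74.7 and 117 CPM. OE5 rose by 1.42 ± 0.32 (adjusted p = 0.00242), but its groups overlapped, with 25.6, 15.5 and 43 CPM in mock and 78.5, 38.3 and 108 CPM after MG. Fitted on the OE5 mock and MG libraries alone, that call was lost (adjusted p = 0.155).

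ERF2, the other IXa activator, was at 7.17, 6.97 and 9.42 CPM in glyI2 mock and at 49.9, 28.6 and 42.3 CPM after MG. In WT it was at 5.03, 8.26 and 5.66 CPM in mock and at 12.1, 9.02 and 8.91 CPM after MG. The groups did not overlap in either genotype, but the gap in WT was narrow. The rise in glyI2 was 2.36 ± 0.33 (adjusted p = 2.78e-06), while WT gave 0.67 ± 0.33 (adjusted p = 0.274), OE1 0.52 ± 0.33 (adjusted p = 0.457) and OE5 0.54 ± 0.32 (adjusted p = 0.45). Without OE5 mock replicate 3 the OE5 value was 1.06 (adjusted p = 0.0469).

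ERF6 of group IXb, which in Arabidopsis is phosphorylated by MPK3 and MPK6 and limits leaf growth under osmotic stress, was at 6.36, 6.42 and 7.3 CPM in WT mock. After MG the WT libraries held 71.8, 105 and 67.3 CPM, a log2 fold change of 3.6 ± 0.61 (adjusted p = 7.44e-05) and the largest among the 10 genes in WT. In glyI2 ERF6 went from 10.9, 5.49 and 13.2 CPM to 132, 111 and 99.1 CPM (3.53 ± 0.6, adjusted p = 4.2e-05). The lowest MG library of either genotype thus lay far above the highest mock library. OE1 rose by 2.27 ± 0.57 (adjusted p = 0.00742), from 9.08, 9.42 and 23.5 CPM to 40.4, 52 and 112 CPM. Replicate 3 was the highest library of both OE1 groups. The OE1 call was lost without mock replicate 1 (adjusted p = 0.0517), mock replicate 2 (0.055) or MG replicate 3 (0.0806), and without mock replicate 3 the value was 2.88. OE5 rose by 2.37 ± 0.58 (adjusted p = 0.00552), from 11.4, 4.62 and 25.1 CPM to 72.1, 22.4 and 118 CPM, with MG replicate 2 below mock replicate 3. The OE5 call was lost without MG replicate 3 (adjusted p = 0.0723) and in a fit on these libraries alone (0.124), and without mock replicate 3 the value was 3.14.

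ERF5, the closest relative of ERF6 among these genes and active in the same growth and defence responses, was at 6.95, 6.09 and 6.37 CPM in WT mock and at 22.3, 24.5 and 20 CPM after MG. The groups were well apart and the rise was 1.78 ± 0.47 (adjusted p = 0.00971). In glyI2, 9.96, 5.36 and 9.69 CPM in mock stood against 25.5, 17.3 and 16.9 CPM after MG, a rise of 1.25 ± 0.46 (adjusted p = 0.0401). This glyI2 call was lost when mock replicate 1 (adjusted p = 0.0551), 2 (0.155) or 3 (0.0681), or MG replicate 1 (0.14) or 2 (0.0543), was left out. OE1 rose by 1.53 ± 0.46 (adjusted p = 0.0301), from 7.13, 7.01 and 13.8 CPM to 16.9, 23.7 and 40.4 CPM. That call was lost without mock replicate 1 (adjusted p = 0.123), mock replicate 2 (0.142) or MG replicate 3 (0.23). OE5, with overlapping groups, gave 1.11 ± 0.46 (adjusted p = 0.169). With the replicate number as a block it was 1.14 (adjusted p = 0.039), and without mock replicate 3 or MG replicate 2 it was 1.71 (0.0355) and 1.46 (0.0488).

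ERF104, an MPK6 substrate, and ERF105, a cold-induced IXb gene, did not pass the test after MG in any genotype. ERF104 differed from mock by −0.58 to 0.46 across the 4 genotypes on the log2 scale, and its groups overlapped in all of them. ERF105 ranged from −0.78 to 1.38. In glyI2 mock ERF105 was at 2.57, 1.61 and 11 CPM, and after MG at 16.2, 9.73 and 13.8 CPM, so that only mock replicate 3, low in CCA1, reached the MG libraries. The difference was 1.38 ± 0.84 (adjusted p = 0.228), it was 1.9 with the replicate number as a block (adjusted p = 0.00683), and without glyI2 mock replicate 3 it was 2.66 (adjusted p = 0.0493). ERF105 overlaps AT5G51180 in the reference gene table, and no source used here says whether counting was stranded. AT5G51180 itself differed by −0.25 ± 0.22 in the same comparison (adjusted p = 0.423).

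ERF1, an EIN3 target that activates defence genes, was at the edge of detection except in glyI2 after MG. It had 0, 4 and 0 counts in WT mock, and 4, 0 and 6 after MG. In glyI2 it had 4, 3 and 1 counts in mock and 47, 37 and 43 after MG, or 2.03, 1.45 and 1.72 CPM. The glyI2 MG libraries were the highest of all 36, and the rise was 3.75 ± 0.67 (adjusted p = 7.16e-05). OE1 gave 1.25 ± 0.77 (adjusted p = 0.445) and OE5 −0.14 ± 0.79 (adjusted p = 0.969). WT gave 1.32 ± 0.94 (adjusted p = 0.572). Without WT mock replicate 2, the one library of that group with reads, the adjusted p was 0.0479, and the fitted fold then depends on the prior count. ORA59, which joins jasmonate and ethylene signals at defensin promoters, was not called after MG in any genotype, with log2 fold changes from −0.22 to 0.25.

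Of the repressors, ERF4 was at 70.2, 49.3 and 31.7 CPM in glyI2 mock and at 117, 125 and 95.7 CPM after MG. Replicate 3 was the lowest library of both groups, and the groups did not overlap. The rise was 1.16 ± 0.42 (adjusted p = 0.0354). It was lost without mock replicate 2 (adjusted p = 0.0826), mock replicate 3 (0.172), MG replicate 1 (0.0738) or MG replicate 2 (0.101), and without all 7 low-CCA1 libraries (0.0941). ERF4 gave 0.74 ± 0.41 in WT (adjusted p = 0.386), and 0.73 and 0.62 in OE1 and OE5, none past the test. ERF11, known to repress ethylene synthesis genes, went from 0.821, 1.16 and 1.2 CPM in glyI2 mock to 3.28, 3.63 and 3.49 CPM after MG. The MG libraries were close together and all above mock, and the rise was 1.69 ± 0.39 (adjusted p = 0.00121). In WT it was 0.57 ± 0.39 (adjusted p = 0.552).

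Root markers moved along with the MG calls, and shoot markers were called in glyI2 alone. All 6 root markers were lower after MG in every genotype, of which 4 passed the test in WT, 5 in glyI2, and 4 in each OE line, with COBL9 at −5.65 ± 0.66 in WT. Their summed level was 114 to 135 CPM in WT mock and 55.9 to 81 CPM in WT MG. In glyI2 it was 97.4 to 191 CPM in mock and 48.8 to 61.8 CPM after MG, and the OE groups were likewise apart (132 to 214 and 75.9 to 82.4 CPM in OE1, 127 to 162 and 60 to 75.6 CPM in OE5). None of the 6 was at 0 throughout a group. Of 4 shoot markers 1 fell in glyI2, CA1 (−1.12 ± 0.29, adjusted p = 0.00401), with a median of −0.41 over the 4 and a summed level of 21100 to 45900 CPM in mock and 18600 to 27400 CPM after MG. In WT none did, with a median of 0.28 and 24500 to 38800 CPM in mock against 25600 to 55300 CPM after MG. All 4 gave negative differences in MG response between glyI2 and WT, with a median of −0.69 and none past the test. In such bulk samples fewer cells of a type and less RNA per cell cannot be told apart, and the part of this in the ERF values was not tested.

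**Figure D2:**
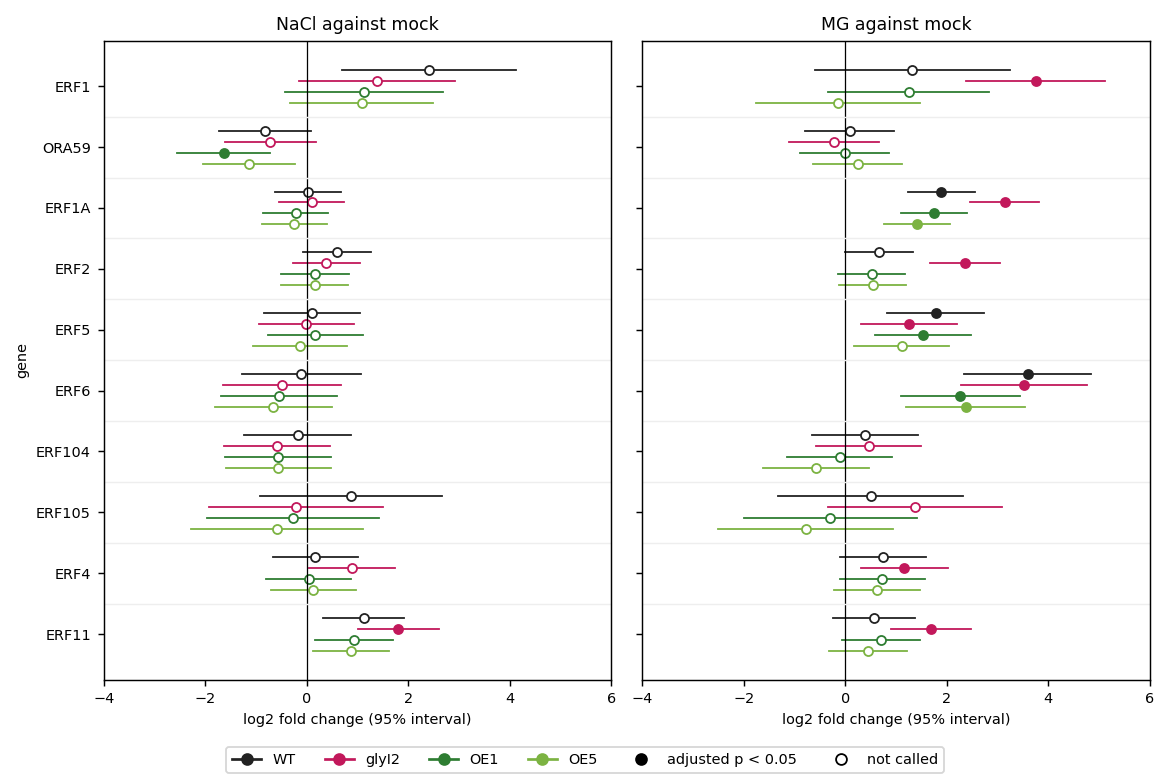
Log2 fold change of each ERF gene with its 95% interval, for NaCl and MG against mock in the 4 genotypes, 3 libraries against 3; filled points passed an adjusted p of 0.05. After MG, ERF1A and ERF6 are filled in all genotypes, and ERF1, ERF2, ERF4 and ERF11 in glyI2 alone.

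The difference between the MG responses of glyI2 and WT was tested for each gene as an interaction. ERF2 alone passed, with a response 1.69 ± 0.46 larger in glyI2 (adjusted p = 0.0321), where 3.97% of all genes were called in either direction and 2.47% higher. In 8 of 12 fits that left out a single library the value stayed between 1.45 and 1.76 but missed the threshold. This was so when replicate 2 (1.45, adjusted p = 0.104) or 3 (0.0514) of WT mock was left out, and likewise for WT MG replicate 2 (0.0876) or 3 (0.0667), glyI2 mock replicate 1 (0.0774) or 2 (0.0689), or glyI2 MG replicate 1 (0.0907) or 3 (0.0587). ERF1A differed by 1.24 ± 0.44 (adjusted p = 0.12), with an adjusted p of 0.0123 in a fit on the compared groups alone. ERF1 differed by 2.43 ± 1.33 (adjusted p = 0.368) and ERF11 by 1.12 ± 0.55 (adjusted p = 0.295). ERF105 differed by 0.88 ± 1.22 (adjusted p = 0.794), and by 2.22 (adjusted p = 0.0256) without the 7 low-CCA1 libraries. ERF6 and ERF5 differed by −0.07 and −0.53, with 95% intervals of −1.67 to 1.53 and −1.85 to 0.79. For OE1 and OE5 edgeR called 0 of the 10 differences from WT, with 0 at an unadjusted p under 0.05 and 0 by DESeq2, where 0.00482% of all genes were called in each line. ERF6 gave the lowest value in OE1, −1.33 ± 0.79, with an interval of −2.94 to 0.28.

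After NaCl the share of the 10 genes called was close to that of all genes. In WT edgeR called 0 of 10, with 2 at an unadjusted p under 0.05 and 1 by DESeq2, where 7.12% of all genes were called. In glyI2 it called 1, ERF11 (7.05% of all genes), in OE1 1, ORA59 (5.33%), and in OE5 0, with 2 at an unadjusted p under 0.05 and 0 by DESeq2 (5.48%). The medians of the 10 genes lay between −0.19 and 0.14, those of all genes between −0.05 and 0.01. The NaCl and mock libraries did not overlap for 3, 2, 3 and 1 of the 10 genes in WT, glyI2, OE1 and OE5. Over all genes tested this share was 27.5%, 17.6%, 18.6% and 16.8%. ERF1A, ERF5 and ERF6, raised by MG, had log2 fold changes between −0.66 and 0.16 after NaCl in all 4 genotypes. ERF1 (1.08 to 2.41), ERF11 (0.88 to 1.8) and ORA59 (−1.63 to −0.72) had values of 1 sign in all 4, most of which missed the threshold.

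ERF11 was at 0.821, 1.16 and 1.2 CPM in glyI2 mock and at 2.14, 4.52 and 4.56 CPM after NaCl, a rise of 1.8 ± 0.39 (adjusted p = 0.00315). The groups did not overlap, and the call was lost in a fit on these libraries alone (adjusted p = 0.0927). In WT ERF11 went from 0.869, 0.896 and 1.48 CPM to 2.13, 2.69 and 2.31 CPM, again without overlap (1.13 ± 0.39, adjusted p = 0.0776), and DESeq2 gave 1.14 (adjusted p = 0.0449). The WT value without the low-CCA1 libraries was 1.16 (adjusted p = 0.049). OE1 gave 0.93 ± 0.37 (adjusted p = 0.166) and OE5 0.88 ± 0.37 (adjusted p = 0.198). In OE5 the blocked value was 0.93 (adjusted p = 0.0389), and without mock replicate 3 it was 1.55 (adjusted p = 0.0162).

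ORA59 was lower after NaCl in every genotype, from −1.63 to −0.72, and passed the test in OE1. There it was at 5.96, 10.2 and 4.4 CPM in mock and at 1.12, 3.28 and 2.14 CPM after NaCl, without overlap (−1.63 ± 0.45, adjusted p = 0.0277). The call was lost without mock replicate 1 (adjusted p = 0.0516) or 2 (0.181), without NaCl replicate 1 (0.151) or 3 (0.0824), without the low-CCA1 libraries (0.0591) and in a fit on these libraries alone (0.104). OE5 gave −1.14 ± 0.44 (adjusted p = 0.147), and −1.21 with the block (adjusted p = 0.0202). ERF1 had 8, 7 and 10 counts in WT NaCl against 0, 4 and 0 in mock (2.41 ± 0.83, adjusted p = 0.0796), with an adjusted p of 0.0103 without WT mock replicate 2. No gene differed in its NaCl response between any line and WT by edgeR, where 0% of all genes did, with 0 of the 10 at an unadjusted p under 0.05 and 0 by DESeq2.

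Set directly against NaCl in WT, MG gave higher ERF1A (1.87 ± 0.32, adjusted p = 0.000115), ERF5 (1.67 ± 0.47, adjusted p = 0.0157) and ERF6 (3.71 ± 0.61, adjusted p = 6.76e-05). These were 3 of the 10, where 6.11% of all genes were called higher and 11.7% in either direction. The ERF5 call was lost without WT NaCl replicate 1 (adjusted p = 0.0676) or 3 (0.0597). The other 7 genes differed by between −1.09 (ERF1) and 0.9 (ORA59).

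Without treatment, none of the 10 genes was called between any line and WT by edgeR, and 0 by DESeq2. The lines had 0 (glyI2), 1 (OE1) and 3 (OE5) of them at an unadjusted p under 0.05. Of all genes tested, 0.0434%, 0.053% and 0.0386% were called. The medians of the 10 genes were 0.34, 0.64 and 0.86, against 0.05, 0.01 and 0.01 over all genes. Replicate 3 of each line's mock group was low in CCA1, no WT mock library was, and its part in these medians was not tested. In OE5 mock ERF6 was at 11.4, 4.62 and 25.1 CPM, against 6.36, 6.42 and 7.3 CPM in WT mock. With a single library left out, the OE5 difference from WT ran from 0.28 to 1.45 for ERF6 and from 0.11 to 1.52 for ERF104. ERF105 had the largest differences, 2.09 ± 0.88 in OE1 (adjusted p = 0.523) and 2.07 ± 0.88 in OE5 (adjusted p = 0.963). In OE1 mock it was at 3.29, 1.94 and 18 CPM and in OE5 mock at 3, 1.3 and 18.7 CPM, so that replicate 3 alone stood above the WT range of 1.51 to 2.32 CPM by a wide margin.

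Several of the 10 genes stood high in replicate 3. In the 7 groups whose replicate 3 was low in CCA1 that library was the highest of the 3 libraries for ERF105 in 7, with a median excess over its mates of 2.38 (0.64 to 3.17) on the log2(CPM + 0.1) scale. For ERF104 it was the highest in 6 of 7, by a median of 1.06, with 18.8, 16.1 and 42.7 CPM in OE1 mock and 17.2, 10.1 and 56 CPM in OE5 mock. ERF6, ERF5 and ERF2 were highest there in 5 of 7 groups each, by medians of 1.16, 0.96 and 0.27, and ERF11 in 6 of 7, by a median of 0.53. ERF4 was lowest in 5 of 7, by a median of −0.86. In the 5 groups whose replicate 3 was not low in CCA1 the medians were 0.53 for ERF105, 0.49 for ERF104, 0.19 for ERF6, −0.03 for ERF5, 0.16 for ERF2, 0.69 for ERF11 and −0.34 for ERF4. The excess of ERF6 and ERF5 varied between groups, with or without low CCA1, and its cause was not tested. Replicate 3 of OE1 MG and OE5 MG, not low in CCA1, exceeded its mates by 1.29 and 1.55 for ERF6 and by 1.01 and 1.08 for ERF5. Replicate 3 of WT NaCl and glyI2 NaCl, low in CCA1, did so by 0.08 and 0.09 for ERF6 and by 0.01 and 0.23 for ERF5. The spread between libraries was widest for ERF105, ERF6 and ERF104, with a biological coefficient of variation of 67.7% for ERF105, 46.1% for ERF6 and 42.5% for ERF104, against 26.8% for ERF1A and 28.3% overall. ERF1A and ORA59 had medians of 0.17 and −0.24 in the 7 groups with replicate 3 low in CCA1. There ERF1A ran from −0.47 in glyI2 NaCl to 1.11 in OE5 mock. In OE5 MG and OE1 MG, not low in CCA1, replicate 3 exceeded its mates by 0.98 and 0.78 for ERF1A.

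**Figure D3:**
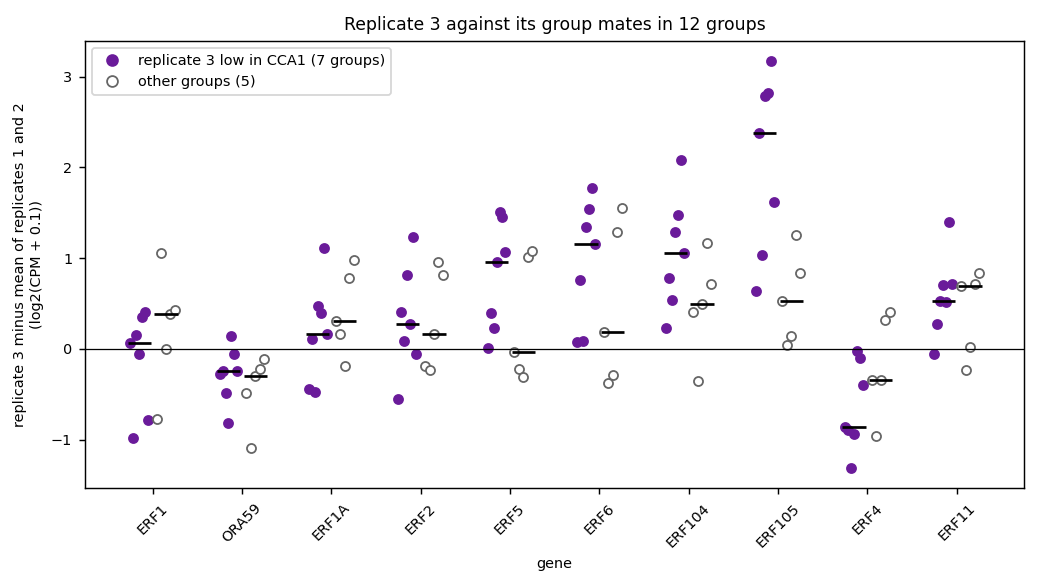
Replicate 3 minus the mean of replicates 1 and 2 for each ERF gene, on the log2(CPM + 0.1) scale; filled points are the 7 groups whose replicate 3 was low in CCA1, open points the other 5, bars medians. ERF105 is above 0 in all 7 filled groups (median 2.38), and ERF4 is below 0 in all 7 (median −0.86).

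Over the 36 libraries ERF1A and ERF6 had the most alike levels of any pair of the 10 genes. Pearson's r of log2 CPM, a description over libraries that share groups, treatments and depth, was 0.96 for ERF1A and ERF6, 0.92 for ERF5 and ERF6, 0.86 for ERF104 and ERF105, and −0.32 for ORA59 and ERF11. Within groups, where the treatment is taken out, it was 0.85 for ERF1A and ERF6, 0.94 for ERF5 and ERF6, and 0.92 for ERF104 and ERF105. It was also 0.92 for ERF104 with ERF5 and with ERF6, and 0.84 and 0.82 for ERF105 with ERF5 and ERF6. These values still hold the replicate 3 differences given above. ERF1A and ERF6 are neighbours on chromosome 4 in the reference gene table, with no gene between them. ERF2 and ERF5 lie on chromosome 5, 3 genes apart. Among all other genes, the level most like that of ERF1A was the NAC factor ATAF2 (r = 0.97), followed by PBP1 (0.96) and AT1G05675 (0.96). ERF6 was most like AT2G20562, ATAF2 and ERF1A (each 0.96), ERF5 most like AT1G32920 (0.94) and ATSIK (0.93), and ERF2 most like AT5G52750 and SIB1 (each 0.9). ERF1 was most like the lipoxygenase gene LOX4 (0.82) and the MAP kinase kinase gene MKK4 (0.81), and ERF11 most like AT3G56880 (0.9). ERF4 was most like AT2G21180 (0.95), ERF104 most like AT2G18670 (0.87), ERF105 most like AT3G23170 (0.88) and ORA59 most like AT3G06145 (0.85).

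Upstream of the ERFs, genes of ethylene synthesis moved in both directions with MG, and those of perception and signalling were not called. Of 13 synthesis genes 11 were tested, and in WT 3 rose and 3 fell, against 3 and 4 in glyI2, 2 and 3 in OE1, and 2 and 2 in OE5, where ACO1 also fell with the block (−1.26, adjusted p = 0.0331). Over all genes 10.7%, 29.2%, 9.79% and 8.82% were called in either direction in WT, glyI2, OE1 and OE5. Some synthesis calls were lost under an alternative. ACO1 in WT was lost without any single WT mock library (adjusted p = 0.0505 to 0.159) or MG replicate 2 (0.223). It was also lost on the compared groups alone (0.121). In OE1 ACO1 (0.0697) and ACS5 (0.0734) were lost without the low-CCA1 libraries, and in OE5 ACS6 on the compared groups alone (0.126). The median over the 11 was 0.17 in WT and 0.58 in glyI2. ACS2, an ACC synthase gene, went from 1.05 ± 0.264 to 13.5 ± 3.78 CPM in WT (3.68 ± 0.42, adjusted p = 1.68e-07) and from 0.961 ± 0.254 to 57.9 ± 5.67 CPM in glyI2. Its response was 2.24 ± 0.57 larger in glyI2 (adjusted p = 0.0205). It no longer passed once replicate 1 of WT mock (0.0767), replicate 2 of WT MG (0.0648) or replicate 3 of glyI2 mock (0.0643) was removed. ACO5, an ACC oxidase gene, fell in WT from 36.5 ± 2.31 to 2.36 ± 0.31 CPM (−3.95 ± 0.28, adjusted p = 4.21e-11). Of the 12 receptor and signalling genes edgeR called 0 after MG in each genotype, with 0, 5, 2 and 2 at an unadjusted p under 0.05 in WT, glyI2, OE1 and OE5. DESeq2 called 1 of them, in glyI2. With the replicate number as a block 4 passed in glyI2, ETR1 (0.35, adjusted p = 0.0331), ERS1 (−0.85, 0.0096), ETR2 (−0.63, 0.0492) and EIL1 (−0.44, 0.0167). In OE1, where the pairing check described below did not hold, ERS2 (0.54, adjusted p = 0.0364) and RTE1 (0.45, 0.0378) passed with the block. The receptor gene ERS2 rose after NaCl in all 4 genotypes, by 0.79 ± 0.19 in WT (adjusted p = 0.00885). The WT call was lost when replicate 1 of mock (0.0604) or replicate 2 of NaCl (0.0603) was left out. In glyI2 5 such libraries ended it (mock replicates 2 and 3 and each NaCl replicate, 0.051 to 0.147), and in OE1 5 (each mock replicate and NaCl replicates 2 and 3, 0.0567 to 0.162). It was also lost without the low-CCA1 libraries in glyI2 (0.0625) and OE1 (0.183), in OE1 with no expression filter (0.0539), and on the compared groups alone in glyI2 (0.232), OE1 (0.234) and OE5 (0.173).

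Of 5 kinase genes that act upstream of ERFs 3 rose in glyI2 after MG (14.4% of all genes did), and 0 in WT, OE1 and OE5 by edgeR or DESeq2, with 1, 1 and 0 at an unadjusted p under 0.05. MKK4, which activates MPK3 and MPK6, went from 14.2 ± 1.02 to 40.4 ± 3.09 CPM in glyI2 (1.51 ± 0.17, adjusted p = 5.76e-08), a response 1.18 ± 0.24 larger than in WT (adjusted p = 0.00309). MKK5 rose by 0.58 ± 0.21 (adjusted p = 0.0372), which was lost without the low-CCA1 libraries (0.0537), glyI2 mock replicate 2 (0.093) or 3 (0.139), or glyI2 MG replicate 1 (0.103) or 2 (0.1).

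Other ERFs of group IX, 6 of 9 tested, were called after MG in glyI2, where 4 rose (14.4% of all genes did). In no other genotype was any called (0 by edgeR and DESeq2, and 0 at an unadjusted p under 0.05). With the block ERF107 fell in glyI2 (−0.98, adjusted p = 0.00145) and OE5 (−0.71, adjusted p = 0.0416). It also fell with the block in OE1 (−0.76, adjusted p = 0.0266), where the pairing check described below did not hold. The median of the 6 was 2.71 in glyI2 and 0.54 in WT. The expression filter can keep a gene that is high in a single group. Genes kept through glyI2 MG alone would raise the glyI2 count and median, and this was not tested. ERF14 rose by 5.68 ± 0.87 (adjusted p = 8.94e-06), to 1.06 ± 0.266 CPM. TDR1, next to ERF1 on chromosome 3 in the gene table, rose by 3.96 ± 0.68 (adjusted p = 4.28e-05), to 2.26 ± 0.607 CPM. ERF13 rose by 3.52 ± 0.58 (adjusted p = 2.35e-05) and ERF15 by 1.91 ± 0.38 (adjusted p = 0.000301). In the interaction test of the MG responses of glyI2 and WT 1 of the 6 passed, where 2.47% of all genes were called higher. This was ERF13, with a response 3.17 larger in glyI2 (adjusted p = 0.0294). It missed the threshold without some single libraries, such as replicate 2 (0.0825) or 3 (0.057) of WT mock. ERF106 of group IX fell after NaCl in WT, from 42.3 ± 0.75 to 22.1 ± 1.9 CPM (−0.94 ± 0.2, adjusted p = 0.00278). Of the other group VIII genes, 9 of 11 tested, 1 was called after MG in each genotype. This was LEP, lower by 1.63 on the log2 scale in WT (−1.63 ± 0.48, adjusted p = 0.0236). In WT it missed the threshold once replicate 1 (0.101) or 2 (0.0767) of WT mock, or replicate 1 (0.0914) or 3 (0.112) of WT MG, was removed. Without the low-CCA1 libraries LEP was lost in OE1 (adjusted p = 0.118) and OE5 (0.0676). On the compared groups alone it was lost in both as well (0.0626 and 0.0735). Over all genes 10.7%, 29.2%, 9.79% and 8.82% were called in either direction after MG in WT, glyI2, OE1 and OE5.

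The downstream genes were those known as targets of ERF5 and ERF6, and defence genes with a GCC box. Of 4 ERF5 and ERF6 target genes 3 rose in WT after MG, 4 in glyI2, and 1 in each OE line, with medians of 1.99, 3.23, 1.11 and 0.72. Over all genes 6.42%, 14.4%, 5.85% and 4.74% were called higher in WT, glyI2, OE1 and OE5. With the block WRKY33 also rose in OE5 (1.69, adjusted p = 0.0156) and OE1 (1.68, adjusted p = 0.0156). So did STZ in OE1 (1.85, adjusted p = 0.048) and the target gene MYB51 in WT (1.17, adjusted p = 0.0243). The pairing check described below did not hold for MG and mock in WT or OE1. GA2OX6, whose product inactivates gibberellins, went from 3.73 ± 0.436 to 10.6 ± 1.41 CPM in WT (1.5 ± 0.21, adjusted p = 4.07e-06) and from 4.01 ± 0.605 to 14.1 ± 0.723 CPM in glyI2. WRKY33, a defence regulator, went from 8.39 ± 0.223 to 46.7 ± 22.7 CPM in WT (2.48 ± 0.68, adjusted p = 0.0144), and the zinc finger gene STZ from 4.46 ± 0.681 to 37.5 ± 6.35 CPM (3.07 ± 0.91, adjusted p = 0.0244). Both WT calls were lost when single libraries were left out. For WRKY33 these were mock replicates 1 (adjusted p = 0.0579), 2 (0.0584) and 3 (0.0614) and MG replicate 3 (0.0645). For STZ they were mock replicates 1 (0.0889), 2 (0.0755) and 3 (0.107) and MG replicate 2 (0.0595). Of 7 GCC-box defence genes 6 were tested, 0 rose after MG in any genotype, and 1 fell in WT, 3 in glyI2 and 1 in OE1, and with the block OSM34 in OE5 (−1.55, adjusted p = 0.0291). Over all genes 10.7%, 29.2% and 9.79% were called in either direction in WT, glyI2 and OE1. Of those 3, PR4 was lost without replicate 1 of glyI2 mock (−0.63, adjusted p = 0.3) or replicate 2 (0.134) or 3 (0.145) of glyI2 MG, and on the compared groups alone (0.0712). The OE1 call was OSM34, lost without mock replicate 1 (0.111) or 2 (0.0568) or any MG replicate (0.0515 to 0.158). The osmotin-like gene OSM34 went from 21.2 ± 12.7 to 4.15 ± 0.466 CPM in WT (−2.36 ± 0.57, adjusted p = 0.00442), and without replicate 3 of WT mock it gave −1.77 (adjusted p = 0.0582).

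**Figure D4:**
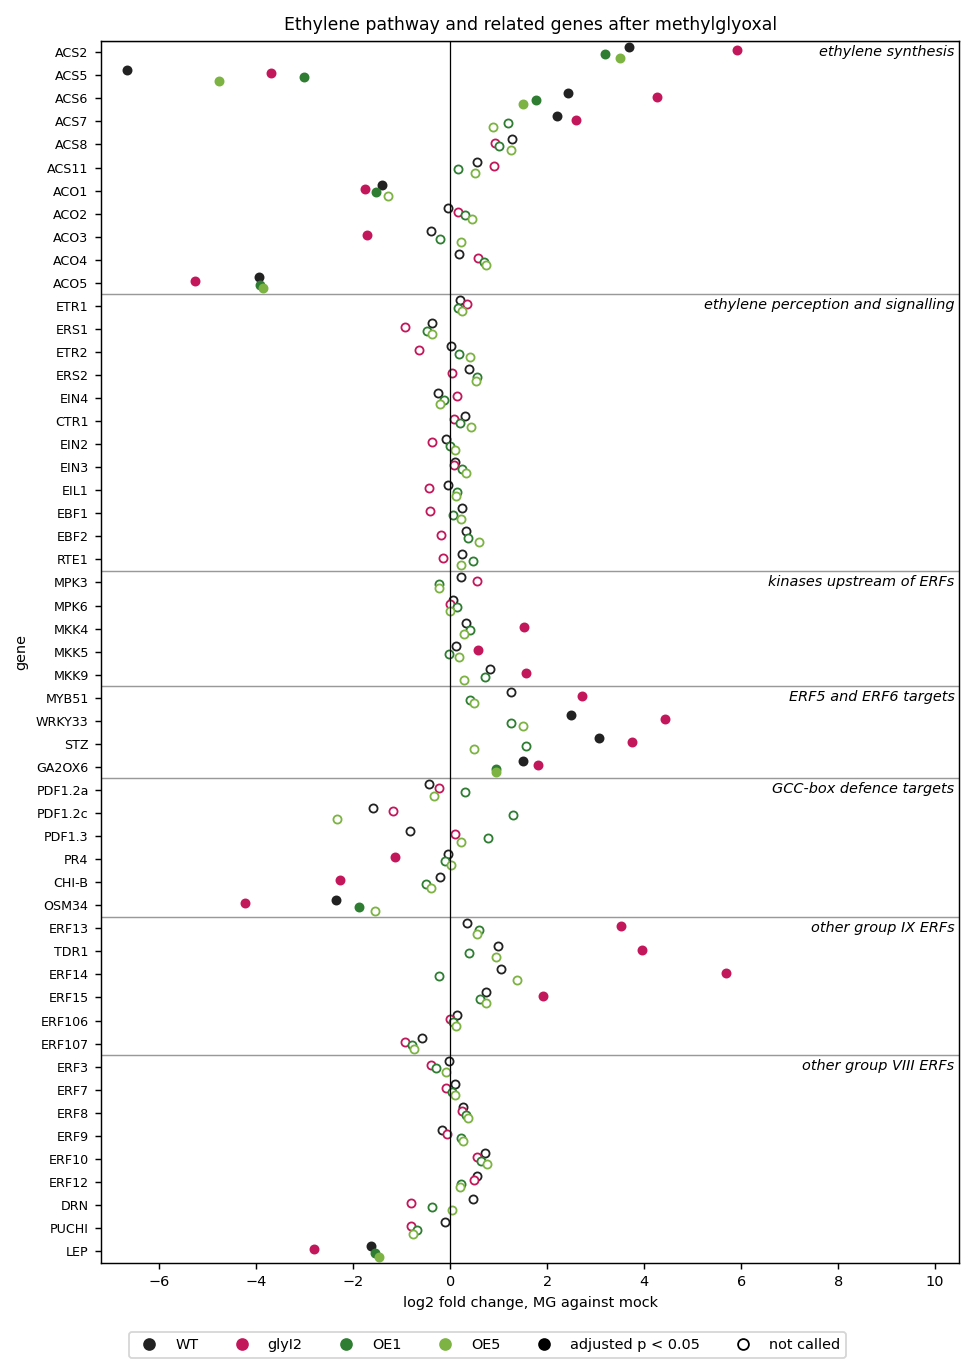
Log2 fold change after MG of the tested genes of ethylene synthesis, perception and signalling, upstream kinases, other ERFs and ERF targets, by genotype; filled points passed an adjusted p of 0.05. The 12 perception and signalling genes have no filled point in this fit without a block, and ACS2 and ACO5 lie far to either side of 0.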

How the data were processed

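Per the submitters' processing notes, HISAT2 2.0.4 did the alignment and HTSeq the counting, on TAIR10. The notes also name SICER and ChIPseeker, and 3 chromatin samples are not analysed here. The deposited files hold the authors' count and FPKM value per gene and library, and FPKM was used only to compare levels between genes. Counts were tested with edgeR 4.0.16 in R 4.3.3 (quasi-likelihood F test, robust, TMM, default expression filter). All 36 libraries entered, with a term per group and no replicate term, and 20748 of 32678 genes were tested. A gene was called where its p, adjusted by Benjamini-Hochberg across the 20748 genes, was under 0.05, and adjusted p-values are edgeR's unless DESeq2 is named. SEs come from the F statistic, and 95% intervals from the SE. Log2 CPM for correlations used a prior count of 2.

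The design gave 18 comparisons, those with WT mock sharing its libraries. The members and lists were chosen with earlier results of these data known. All 10 members are described, with up to 4 called genes per list by adjusted p. For likeness, the 3 genes with the highest r and an average log2 CPM of at least 1 were taken. Gene names follow a TAIR10.1 table (31912 identifiers matched), used for names and neighbours only. Alternatives were DESeq2 1.42.0, RLE scaling, no filter, a block for the replicate number, a fit restricted to the groups compared, leaving out each library, and leaving out the 7 libraries under a CCA1 log2 CPM of 2. Replicate numbers were taken as pairs where all 3 correlations of deviations from the group means were over 0.1. This held for 4 of 12 pairs of groups (MG and mock in glyI2 and OE5, NaCl and mock in OE5, and MG and NaCl in WT), with correlations from −0.15 to 0.77 in all. Tested on simulated data for WT MG against mock over 20748 genes, the fit recovered 30% of 2-fold and 77% of 4-fold changes with 6 false calls. The simulation changed 100 genes at each fold, where the data had 2215 called, and the adjusted p depends on that share. Its counts were drawn independently for each library, without the replicate 3 pattern, so recovery in the data can differ. Library totals were alike, with TMM factors from 0.759 to 1.284. Counting error adds most to ERF1 and, with as few as 15 and 31 counts in a library, to ERF11 and ERF105.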

Additional observations from a re-analysis of the deposited data

Results flagged for a closer look

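The response of ERF2 to MG was larger in glyI2 than in WT by 1.69 on the log2 scale (SE 0.46, 3 libraries in each of 4 groups, edgeR adjusted p = 0.0321), a difference between genotypes by the interaction test. It was called in 4 of the 12 fits that left out a single library, with adjusted p-values from 0.0212 to 0.104. The other 6 alternatives called it, with adjusted p-values from 0.00805 to 0.0371.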

How the results depend on the processing

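Of 2504 values of the 10 genes under an alternative, 2447 kept their side of the threshold, 36 lost a call, 21 gained one, and no called value changed sign. RLE scaling and no expression filter changed no count of the 10 genes by over 1.5 times. DESeq2 called 1 gene in WT NaCl. The fit on the compared groups alone called 0 in glyI2 NaCl, OE1 NaCl and OE5 MG, and 2 differences in MG response between glyI2 and WT. Without the low-CCA1 libraries there was 1 call in WT NaCl, 0 in OE1 NaCl, 1 in OE5 NaCl, 4 in OE5 MG and 2 in the glyI2 to WT difference. In glyI2 MG that setting gained ERF105 (2.71, adjusted p = 8.06e-05) and lost ERF4 (0.0941), which left the count as it was. The replicate block gave 1 call in WT NaCl (ERF11, adjusted p = 0.0106), 2 in OE1 NaCl (ERF11 added, 0.0373) and 2 in OE5 NaCl. The pairing check held for neither WT NaCl nor OE1 NaCl, and apart from the blocked values given above the block changed no other call of the 10 genes. Leaving out single libraries gave 0 to 1 calls in WT NaCl, OE1 NaCl, OE5 NaCl and the glyI2 to WT difference, 3 to 4 in WT MG, 2 to 3 in WT MG against NaCl, 5 to 7 in glyI2 MG, 1 to 3 in OE1 MG and 1 to 4 in OE5 MG. Over all genes the block called 2300, 2224, 1786 and 1812 after NaCl in WT, glyI2, OE1 and OE5, against 1478, 1462, 1105 and 1136, and 1447 glyI2 to WT differences in MG response against 823. The compared groups alone, with fewer libraries, called 216, 500 and 293 after NaCl in glyI2, OE1 and OE5, 1139 against 1831 in OE5 MG, 1188 against 2430 in WT MG against NaCl, 5, 3 and 1 against 9, 11 and 8 between lines and WT, and 0 against 1 for the OE5 difference in MG response. Without the low-CCA1 libraries OE5 mock had 5 against 8, and DESeq2 called 2, 1 and 1 differences in NaCl response against 0. The cause of these shifts was not tested otherwise. ERF1, with at most 47 counts, is limited by depth, as are the low ERF11 and ERF105 libraries.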
